A study of Danio rerio with 16 samples.

Results

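GATA factors are zinc-finger proteins that bind GATA motifs in DNA. TAL1 is a basic helix-loop-helix protein that pairs with E-proteins, and LMO2 is a LIM-only protein that does not bind DNA itself but bridges TAL1, GATA factors and LDB1 into a complex in blood and endothelial cells. Open chromatin near 10 zebrafish genes of these families was examined: gata1a, gata2a, gata2b, gata3, gata4, gata5, gata6, tal1, tal2 and lmo2. A peak was assigned to a gene if the HOMER annotation deposited with it named that gene as the nearest, so that assignment rests on distance and not on function. Of 9466 differential peaks in the deposited lists, 25 were assigned to 9 of the 10 genes, and gata2b had none.

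In ATAC-seq the Tn5 transposase cuts and tags accessible DNA, so that read density reports how open a site is. Cells came from embryos at 28 to 30 hpf that carried TgBAC(runx1P2:Citrine) and Tg(kdrl:mCherry), were wild type for runx1 and were pooled before sorting. DP-R1hi cells, sorted as mCherry+ with high Citrine, are enriched for haemogenic endothelium (HE), and DP-R1lo cells, mCherry+ with low Citrine, for aortic roof endothelium (ARE). The series holds 16 libraries, namely 3 of each of 5 sorted populations and 1 of genomic DNA, each sorted library from 2000 to 3000 cells, and the populations other than DP-R1hi and DP-R1lo were not analysed here. Both gates require kdrl promoter activity through mCherry and differ in the activity of runx1 regulatory sequence on the BAC, so that a population is defined by reporter proteins and not by the genes it transcribed at the time of sorting. Citrine protein can also persist in primitive erythrocytes.

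Each listed peak has 1 mean per population. The lists have no header, and these means were read as the log2 of normalised reads. They were taken to be over 2 replicates, since the authors left out 1 of 3 in each population. The lists hold only peaks called different between the populations that also passed a minimum fold change set by the authors. The smallest difference listed was 0.71 on the log2 scale. Whether reads of the genomic DNA control had been subtracted from these means is not given in the sources used here, and the normalised reads and folds below depend on it. The lists give neither values per replicate nor library depths, so the values below have no SD and no test was made. Differences are DP-R1hi minus DP-R1lo. In a bulk library, fewer cells with an open site and less signal per cell cannot be told apart.

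In blood development, GATA1 drives red cell genes and GATA2 acts in stem and progenitor cells and in endothelium. Zebrafish have the duplicates gata2a and gata2b, of which gata2b is known for its expression in HE and gata2a for wider vascular and neural expression. GATA3 is known from mice for T cell and sympathetic neuron development, and GATA4, GATA5 and GATA6 for heart and endoderm. TAL1 and LMO2 are needed for the earliest blood and endothelial progenitors, whereas TAL2, close in sequence to TAL1, is known from mice for midbrain development.

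The 25 peaks were split between the lists. In all, 14 were more open in DP-R1hi, that is 56.0% of the peaks of these genes, against 40.8% of all listed peaks, and 11 were more open in DP-R1lo (44.0%, against 59.2% of all listed peaks). At a difference of at least 2 on the log2 scale, 10 peaks were more open in DP-R1hi (40.0%, against 27.1% of all) and 10 in DP-R1lo (40.0%, against 48.9% of all). By gene, gata1a, tal2 and lmo2 had peaks only in the DP-R1hi list, gata6 and tal1 only in the DP-R1lo list, and gata2a, gata3, gata4 and gata5 in both. Shares of genes by list were not computed over all genes. The listed peak of tal1 was opposite to those of gata1a and lmo2, but each of these genes had only 1, assigned by distance. Peaks of 1 gene share a locus and are not independent.

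**Figure D1:**
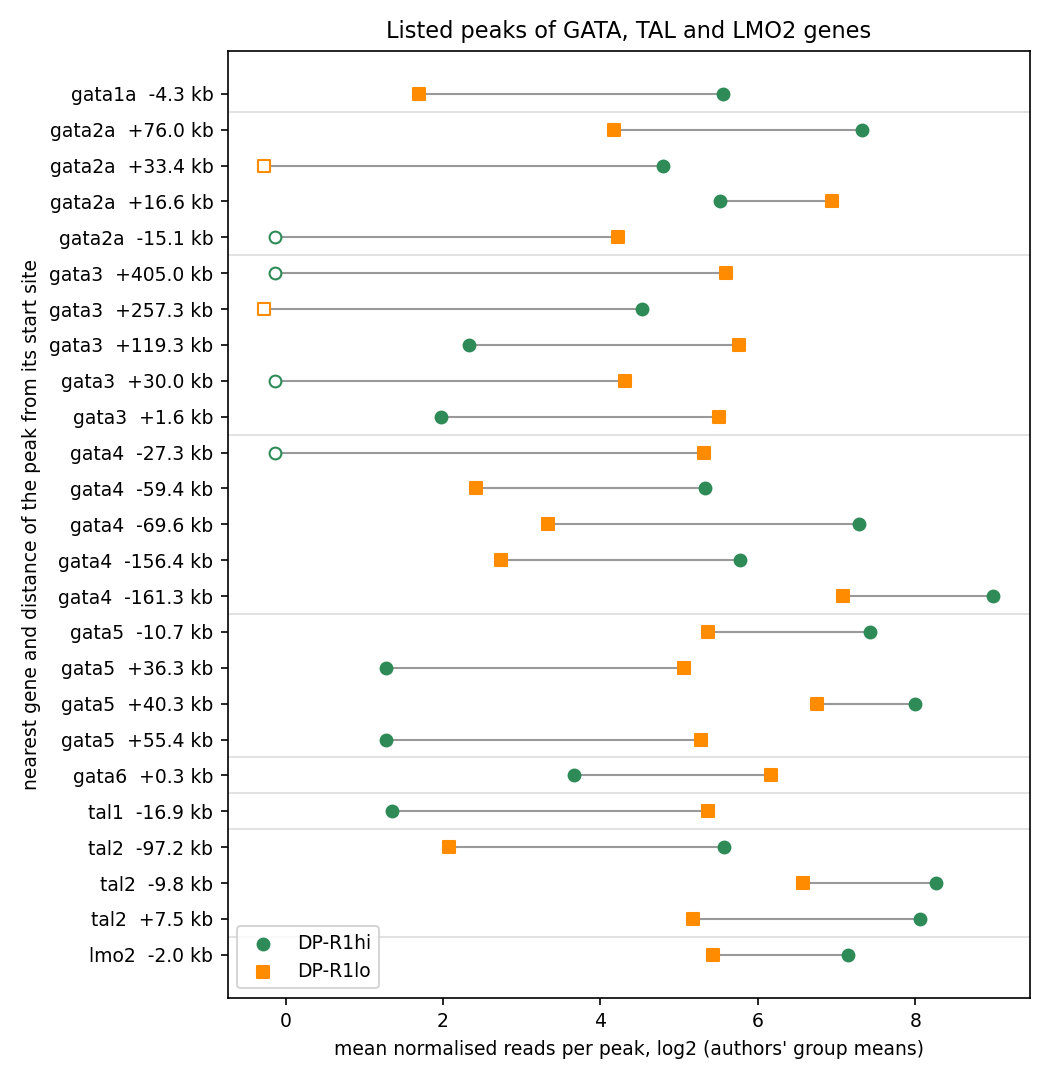
Mean normalised reads (log2, horizontal axis) in DP-R1hi (green circles) and DP-R1lo (orange squares) for each of the 25 peaks, labelled by nearest gene and distance from its start site. Lines join the means of 1 peak, and open symbols mark the lowest value listed for that population, which was reached in 6 peaks.

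The gata1a gene, which encodes the main erythroid GATA factor, had 1 listed peak, more open in DP-R1hi. It was intergenic on chromosome 11 (25185436 to 25185742, GRCz10, as for all positions), 4347 bp upstream of the start site. The peak had 47.2 normalised reads in DP-R1hi (5.56 on the log2 scale), against 3.25 in DP-R1lo (1.70), a difference of 3.86 or 14.5-fold. Its DP-R1hi mean lay in the lower part of the DP-R1hi list, of which 22.8% had a lower DP-R1hi mean. The DP-R1lo mean was low but above the lowest listed value.

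Peaks of erythroid marker genes moved in the same direction as the gata1a peak. Of 18 erythroid genes, 11 had a listed peak, and 20 of their 21 peaks were more open in DP-R1hi (95.2%, against 40.8% of all listed peaks). The normalised reads summed over these 21 peaks were 2739 in DP-R1hi and 807 in DP-R1lo. Since 20 of them are in the DP-R1hi list, the direction of this sum follows from the choice of list. Among the peaks, 7 lay within 1 kb of a start site, all more open in DP-R1hi. They belonged to the embryonic globin gene hbae3, the anion exchanger gene slc4a1a, the transcription factor gene klf17, the membrane skeleton gene epb41b, the carbonic anhydrase gene cahz, the erythropoietin receptor gene epor and the haem synthesis gene urod. At the slc4a1a promoter the means were 7.90 in DP-R1hi and 6.60 in DP-R1lo, and at the hbae3 promoter 4.97 in DP-R1hi, with DP-R1lo at its lowest listed value of -0.27. The 1 erythroid peak more open in DP-R1lo lay 19104 bp from the hbae3 start site. Of the globin genes, hbae1.1, hbae1.3, hbae5, hbbe1.1, hbbe1.2 and hbbe2 had no listed peak, nor had the erythroid factor gene nfe2. The part of erythroid cells in the gata1a difference, or in those of the other 13 peaks more open in DP-R1hi, was not tested.

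The gata2a gene had 4 intergenic peaks over 91.5 kb of chromosome 11, with 2 in each list. The peaks downstream of the start site by the greatest distances were more open in DP-R1hi. The peak at +76023 bp (3764890 to 3765358) had 159.8 normalised reads in DP-R1hi (7.32 on the log2 scale) and 18.0 in DP-R1lo (4.17), a difference of 3.15 or 8.88-fold. The peak at +33430 bp (3807554 to 3807881) had 27.7 normalised reads in DP-R1hi (4.79), with DP-R1lo at its lowest listed value.

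The gata2a peaks nearer to the start site were more open in DP-R1lo. The peak at +16555 bp (3824248 to 3824936) was open in both populations, with 45.9 normalised reads in DP-R1hi (5.52) and 123 in DP-R1lo (6.94), a difference of -1.42 or 2.68-fold. The upstream peak at -15096 bp (3856128 to 3856359) was at the lowest listed value in DP-R1hi and at 18.6 normalised reads in DP-R1lo (4.22). That peak was among the weakest of its list, since 0.964% of the DP-R1lo list had a lower DP-R1lo mean. Only 16.4 kb separated the nearest gata2a peaks of opposite direction.

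The paralogue gata2b, a factor of the HE, had no listed peak. The 6 protein-coding genes beside it on chromosome 6 in the GRCz12tu gene order, namely arpc4, si:ch211-157b11.8, h1-10, eefsec, ruvbl1 and mustn1a, had 0 listed peaks as well. The 6 genes beside each of gata2a, gata5 and tal2 also had no listed peak, so this is not particular to gata2b. Because the lists leave out every peak not called different or below the minimum fold change, the lack of a listed peak gives no level of accessibility for gata2b in either population. In the mouse an enhancer in a Gata2 intron acts in HE, and none of the gata2a peaks was annotated as intronic, which likewise says nothing on a site that is open in both populations.

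The gata3 gene had 5 peaks over 403.8 kb of chromosome 4, of which 4 were more open in DP-R1lo. The peak closest to the start site lay at +1627 bp (25073481 to 25073889) and was annotated to exon 2 of 6. It had 3.92 normalised reads in DP-R1hi (1.97 on the log2 scale) and 45.3 in DP-R1lo (5.50), a difference of -3.53 or 11.6-fold. An intergenic peak at +119340 bp (24955756 to 24956189) was similar in size, with 5.03 normalised reads in DP-R1hi (2.33) and 54.2 in DP-R1lo (5.76), a difference of -3.43 or 10.8-fold. In both of these peaks DP-R1hi was above its lowest listed value, whereas each of the other gata3 peaks was at the lowest listed value of 1 population.

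At +29970 bp from the gata3 start site (25045187 to 25045497) DP-R1hi was at its lowest listed value and DP-R1lo at 19.8 normalised reads (4.31). At +405048 bp (24670041 to 24670488), the farthest of all 25 peaks, DP-R1hi was again at its lowest listed value and DP-R1lo at 48.2 (5.59). The remaining peak, at +257328 bp (24817817 to 24818151), went the other way, with 23.1 in DP-R1hi (4.53) and DP-R1lo at its lowest listed value. At such distances the nearest start site is a weak guide to the gene a site acts on.

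The gata4 gene had 5 intergenic peaks, all upstream of the start site over 134.5 kb of chromosome 20, and 4 were more open in DP-R1hi. The strongest of the 25 peaks was at -161291 bp (53323381 to 53324123), with 508 normalised reads in DP-R1hi (8.99 on the log2 scale) and 135 in DP-R1lo (7.08), a difference of 1.91 or 3.76-fold. It was open in both populations, and 97.2% of the DP-R1hi list had a lower DP-R1hi mean. A weaker peak 4325 bp away, at -156404 bp (53318675 to 53319056), had 54.6 in DP-R1hi (5.77) and 6.68 in DP-R1lo (2.74), or 8.17-fold.

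A second gata4 pair lay closer to the gene, 9685 bp apart. The peak at -69599 bp (53231776 to 53232344) had 155 normalised reads in DP-R1hi (7.28) and 10.1 in DP-R1lo (3.33), a difference of 3.95 or 15.5-fold. The peak at -59442 bp (53221716 to 53222091) had 40.2 in DP-R1hi (5.33) and 5.35 in DP-R1lo (2.42), or 7.52-fold. Both pairs were thus more open in DP-R1hi, whereas the peak nearest to the start site, at -27285 bp (53189577 to 53189916), was at the lowest listed value in DP-R1hi and at 39.7 in DP-R1lo (5.31).

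The gata5 gene had 4 intergenic peaks over 66.7 kb of chromosome 23, with 2 in each list and both directions downstream of the start site. The upstream peak at -10689 bp (7434879 to 7435400) had 171 normalised reads in DP-R1hi (7.42) and 41.1 in DP-R1lo (5.36), a difference of 2.06 or 4.17-fold. The peak at +40302 bp (7485756 to 7486505) had 256 in DP-R1hi and 108 in DP-R1lo, a difference of 1.25 or 2.38-fold. These were well open in both populations, unlike the gata5 peaks of the other list.

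The gata5 peak at +36286 bp (7481940 to 7482288) had 2.41 normalised reads in DP-R1hi (1.27) and 33.4 in DP-R1lo (5.06), a difference of -3.79 or 13.8-fold. The peak at +55438 bp (7500936 to 7501597) had the same DP-R1hi mean of 2.41 and 38.9 in DP-R1lo (5.28), a difference of -4.01 or 16.1-fold. Both DP-R1hi means were low but above the lowest listed value, so these folds rest on few reads. Peaks at +36286 and +40302 bp were opposite in direction across a gap of 3468 bp. Over all listed peaks, 1159 of 1418 neighbouring pairs within 10 kb were in the same list (81.7%), and the gata4 pairs were of this kind.

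The gata6 gene had 1 listed peak, more open in DP-R1lo, at +276 bp from the start site on chromosome 2 (4367227 to 4368074). It was the only one of the 25 peaks within 1 kb of a start site. At 848 bp it was also the widest, so that it spanned the start site. It was annotated to exon 3 of 9, and the transcript of that exon was not checked. The peak had 12.6 normalised reads in DP-R1hi (3.66 on the log2 scale) and 72.0 in DP-R1lo (6.17), a difference of -2.51 or 5.70-fold. Another heart factor gene, nkx2.5, had its 1 listed peak in the DP-R1lo list, which holds 59.2% of all listed peaks. That peak lay at +174 bp, with DP-R1hi at its lowest listed value. Its DP-R1lo mean was 4.40, below the median of that list (5.93). By contrast, gata4 had 4 of 5 peaks in the DP-R1hi list and gata5 had 2 in each list. The heart and limb factor genes tbx5a and hand2 had no listed peak.

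By RNA, a different measure, the paper reports high tal1 expression in DP-R1hi cells and also in DP-R1med cells, the gate of medium Citrine. The tal1 gene had 1 listed peak, and it was more open in DP-R1lo. This intergenic peak lay at -16921 bp (chromosome 22, 16492209 to 16492580) and had 2.55 normalised reads in DP-R1hi (1.35 on the log2 scale), against 41.1 in DP-R1lo (5.36), a 16.1-fold difference. The DP-R1hi mean was low but above the lowest listed value, so this fold rests on few reads. The DP-R1lo mean of the peak was below the median of the DP-R1lo list (5.93), and 29.7% of that list had a lower DP-R1lo mean. At lower coordinates, a pair of ier5 peaks 15.8 and 11.7 kb away had the same direction, at 4.51 and 7.41 in DP-R1hi, against 7.35 and 8.97 in DP-R1lo. At higher coordinates, a peak in an intron nearest to pdzk1ip1, 59.0 kb from the tal1 peak, was more open in DP-R1hi, with 9.23 in DP-R1hi and 8.24 in DP-R1lo.

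The tal2 gene had 3 intergenic peaks over 105.2 kb of chromosome 5, all more open in DP-R1hi, and it was the only gene here with more than 1 peak and none in the other list. The peak at +7457 bp (8850737 to 8851469) had 267 normalised reads in DP-R1hi (8.06 on the log2 scale) and 36.0 in DP-R1lo (5.17), a difference of 2.89 or 7.41-fold. The peak at -9829 bp (8833451 to 8834183) had 307 in DP-R1hi (8.26) and 95.0 in DP-R1lo (6.57), a difference of 1.69 or 3.23-fold. Both were strong sites on either side of the start site, above 86.6% and 89.8% of the DP-R1hi list.

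The third tal2 peak, at -97169 bp (8746287 to 8746667), was weaker, with 47.5 normalised reads in DP-R1hi (5.57) and 4.23 in DP-R1lo (2.08), a difference of 3.49 or 11.2-fold. A peak nearest to rchy1 lay 4.2 kb from it and was also more open in DP-R1hi, with 6.78 in DP-R1hi and 4.82 in DP-R1lo.

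The lmo2 gene had 1 listed peak, more open in DP-R1hi, 2023 bp upstream of the start site on chromosome 18 (38305752 to 38306146). The peak had 142 normalised reads in DP-R1hi (7.15 on the log2 scale) and 43.1 in DP-R1lo (5.43), a difference of 1.72 or 3.29-fold. It was open in both populations and, among the DP-R1hi peaks of these genes, the one closest to a start site. No other listed peak lay within 100 kb of it.

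**Figure D2:**
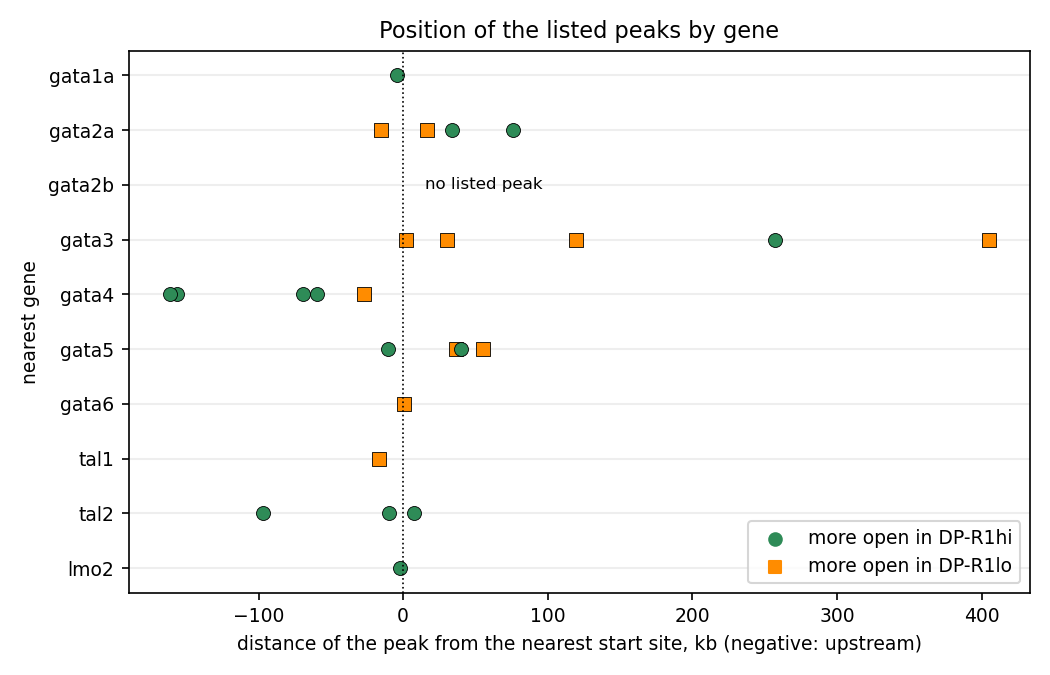
Distance of each of the 25 peaks from the nearest start site (kb, horizontal axis, upstream to the left) by gene, with green circles for peaks more open in DP-R1hi and orange squares for peaks more open in DP-R1lo. All gata4 peaks lay upstream, all gata3 peaks downstream, and gata2b had no listed peak.

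As a group the peaks of these genes lay mostly between genes, at a median distance close to that of all listed peaks. By annotation 23 of 25 were intergenic (92.0%), against 62.8% of all listed peaks, and the exceptions were the exonic gata3 and gata6 peaks. All 14 peaks more open in DP-R1hi were intergenic, against 62.4% of that list, and 9 of 11 more open in DP-R1lo (81.8%, against 63.0% of that list). None was annotated to an intron or to a promoter, classes that held 24.8% and 5.35% of all listed peaks. The gata6 peak, annotated as exonic, nevertheless spanned its start site. The median distance from the nearest start site was 33.4 kb, against 31.0 kb for all listed peaks, but the lists went opposite ways. It was 49.9 kb for the DP-R1hi peaks, against 28.8 kb for that list, and 27.3 kb for the DP-R1lo peaks, against 32.9 kb for that list. Within 50 kb of a start site lay 7 of the 14 DP-R1hi peaks (50.0%, against 65.6% of that list) and 8 of the 11 DP-R1lo peaks (72.7%, against 62.7% of that list). All 4 DP-R1hi peaks of gata4 lay beyond 50 kb. The other distant DP-R1hi peaks were of gata2a and tal2, together with the gata3 peak at +257328 bp. The greater distance of the DP-R1hi peaks thus depends on the gata4 locus, where assignment of the distant peaks is uncertain. Distances were not recomputed without gata4.

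The peaks more open in DP-R1hi were on the whole stronger than those more open in DP-R1lo. In the DP-R1hi list, the DP-R1hi means of these genes had a median of 7.21 on the log2 scale, against 6.54 for the whole list. In the DP-R1lo list, the DP-R1lo means had a median of 5.36, against 5.93 for the whole list. The order of the lists was thus that of all peaks. The gap between medians was wider for these genes, but it is not stable. None of their peaks more open in DP-R1hi had a DP-R1hi mean between 5.77 and 7.15, so a few peaks move that median.

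Counts of peaks with signal left in the less open population were small. A single peak moves these shares by much, so they are not read as a difference from the lists. In DP-R1lo it was at least 5 on the log2 scale in 6 of the 14 DP-R1hi peaks (42.9%, against 35.7% of that list), namely 1 of gata4, 2 of gata5, 2 of tal2 and that of lmo2. In DP-R1hi it was at least 5 in 1 of the 11 DP-R1lo peaks (9.09%, against 17.5% of that list), that of gata2a at +16555 bp. The less open population was at its lowest listed value in 2 of the 14 DP-R1hi peaks, 1 of gata2a and 1 of gata3 (14.3%, against 18.8% of that list). The same held for 4 of the 11 DP-R1lo peaks, 1 of gata2a, 2 of gata3 and 1 of gata4 (36.4%, against 36.6% of that list). Median differences were close to those of the lists, at 2.97 against 2.70 for DP-R1hi peaks and -4.01 against -3.90 for DP-R1lo peaks.

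**Figure D3:**
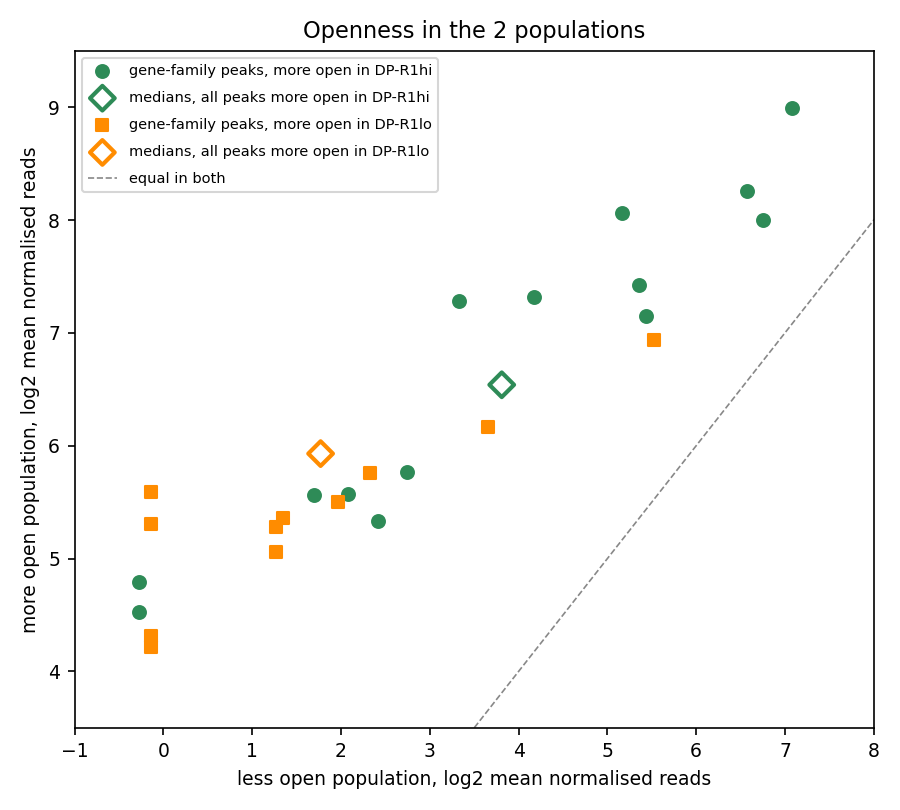
Log2 mean normalised reads in the more open population (vertical axis) against the less open population (horizontal axis) for the 14 peaks more open in DP-R1hi (green circles) and the 11 more open in DP-R1lo (orange squares), with diamonds at the medians of each whole list and a dashed line of equal openness. The upper right holds DP-R1hi peaks of gata4, gata5, tal2 and lmo2, open in both populations.

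Other listed peaks within 100 kb of these sites belonged to few genes. The gata6 peak had 4 such neighbours, 3 nearest to cables1 and 1 without a gene symbol, all more open in DP-R1lo. The gata1a peak had 2, both nearest to mafbb and more open in DP-R1lo, opposite to the gata1a peak, at 3.13 and -0.14 in DP-R1hi, against 6.09 and 5.10 in DP-R1lo. Beside the gata4 peaks, the fdft1 promoter was open in both populations, with 10.23 in DP-R1hi and 9.44 in DP-R1lo, and a peak nearest to cdc40 had 6.56 in DP-R1hi and 3.58 in DP-R1lo. In the GRCz12tu gene order fig4a, gpr6 and wasf1 follow gata4 on the side away from fdft1, where the gata4 peaks lie, and had no listed peak. Whether these genes lie among the gata4 peaks in GRCz10 was not examined, so the assignment of the distant peaks to gata4 is uncertain. No peak of another gene lay within 100 kb of the gata2a, gata3, gata5 or lmo2 peaks.

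Genes for known partners of the GATA, TAL1 and LMO2 proteins were split in much the same proportion. Of 20 partner genes 13 had a listed peak, and 19 of their 34 peaks were more open in DP-R1hi (55.9%, against 40.8% of all listed peaks). Peaks were found only in the DP-R1hi list for 6 genes, only in the DP-R1lo list for 4 and in both for 3. Many of these genes had few peaks, and the same split was not computed over all genes. The FOG family, zinc-finger cofactors that bind GATA factors, lay mostly on the DP-R1hi side. All 3 zfpm1 peaks were more open in DP-R1hi, with differences of 1.80, 2.84 and 1.87, as were 5 of 6 zfpm2a and 2 of 3 zfpm2b peaks. The LMO2 relative lmo1 had 3 peaks more open in DP-R1hi, with differences of 2.32, 1.98 and 2.88. Of these, 2 were adjacent (27809344 to 27809901 and 27809964 to 27810479). Other LMO2 relatives were split, with 1 peak each of lmo3 and lmo4b more open in DP-R1hi and both lmo4a peaks more open in DP-R1lo.

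The E-protein gene tcf12, whose product pairs with TAL1, lay mostly on the other side. Of its 8 peaks, 6 were more open in DP-R1lo, and differences in these ran between -6.05 and -1.45, with DP-R1hi at its lowest listed value in 2. The LDB1 gene ldb1a had 2 peaks, both more open in DP-R1lo. No listed peak was nearest to tcf3b, tcf4, ldb1b, ssbp2, cbfa2t2, cbfa2t3 or lyl1, and no partner gene had a listed peak within 1 kb of its start site.

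Other factors of HE and blood stem cells were also divided. Of 17 genes 15 had a listed peak, and 17 of 30 peaks were more open in DP-R1hi (56.7%, against 40.8% of all listed peaks). All 3 peaks of myb, a stem and progenitor cell factor, were more open in DP-R1hi, including its promoter at 7.66 in DP-R1hi and 6.30 in DP-R1lo. The same held for all 3 peaks of runx1t1 and both peaks of gfi1aa, a repressor of endothelial genes in HE, whose promoter had 6.31 in DP-R1hi and 4.15 in DP-R1lo. Among ETS factor genes, erg, with 4 peaks, etv2, with 2, and fli1a and fli1b, with 1 each, had peaks only in the DP-R1lo list. The 1 listed peak of another ETS factor gene, spi1b, was more open in DP-R1hi. Both directions occurred at hhex, with 2 DP-R1hi peaks and 1 DP-R1lo peak, and at cbfb, which encodes the partner of Runx1, with 1 DP-R1hi peak and 2 DP-R1lo peaks. No listed peak was nearest to runx1, which is also present on the reporter BAC, or to dnmt3bb.1.

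Endothelial marker genes were the clearest on the DP-R1lo side. Of 14 such genes 11 had a listed peak. Of their 42 peaks, 4 were more open in DP-R1hi (9.52%, against 40.8% of all listed peaks) and 38 in DP-R1lo. Their normalised reads summed to 1558 in DP-R1hi and 4782 in DP-R1lo, a direction that follows from the 38 peaks being in the DP-R1lo list. The VEGF receptor genes kdrl, flt1 and flt4, the cadherin gene cdh5 and the Notch ligand gene dll4 had 5, 5, 4, 3 and 6 peaks, all more open in DP-R1lo. The pecam1 and tek promoters were also more open in DP-R1lo, as were 5 of 6 egfl7 peaks and 3 of 4 efnb2a peaks, while hey2 had 2 peaks in each list. Sequence of kdrl drives the mCherry used in both gates. The kdrl peak at -4622 bp was open in both populations, at 6.63 in DP-R1hi and 8.46 in DP-R1lo. By contrast, the kdrl peak at -399 bp was at the lowest listed value in DP-R1hi and at 6.26 in DP-R1lo. The kdrl peak at -74293 bp was also at the lowest listed value in DP-R1hi. Those at +1272 and -10829 bp were above that value, and all 5 kdrl peaks were more open in DP-R1lo. The 11 peaks of gata2a, gata3, gata4, gata5, gata6 and tal1 in the DP-R1lo list have this direction by the choice of list. The other 14 peaks of the GATA, TAL and LMO2 genes went the other way. The part of endothelial cell content in these differences was not tested.

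**Figure D4:**
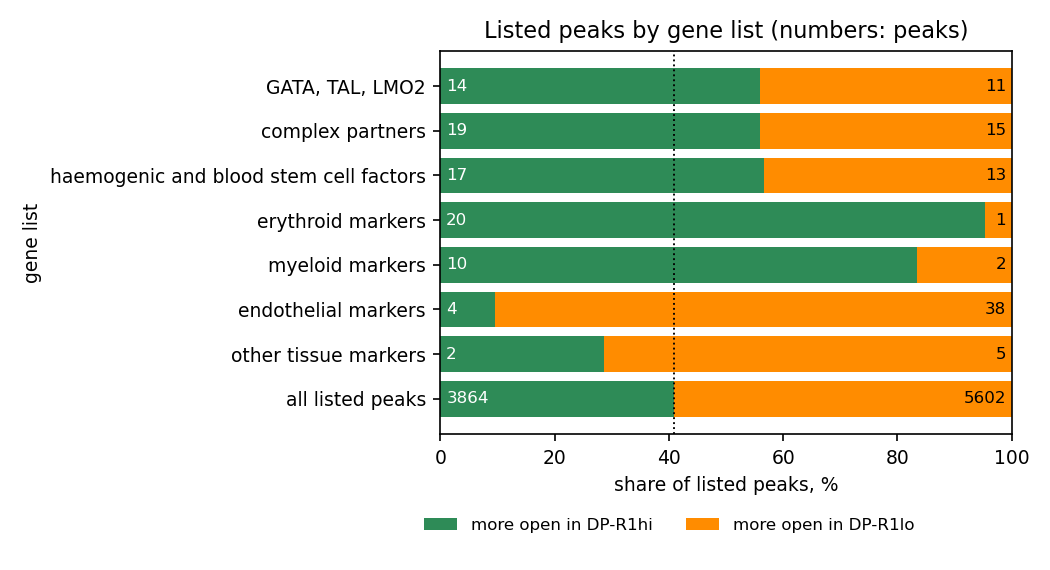
Share of listed peaks (%, horizontal axis) more open in DP-R1hi (green) and in DP-R1lo (orange) for the GATA, TAL and LMO2 genes, for other gene lists and for all listed peaks, with the number of peaks in each bar. The dotted line marks the 40.8% of all listed peaks more open in DP-R1hi, with the erythroid markers (95.2%) to its right and the endothelial markers (9.52%) to its left.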

How the data were processed

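The authors trimmed ATAC-seq reads with Trimmomatic 0.32, aligned them to GRCz10 with BWA 0.7.12, called peaks against genomic DNA, removed 1 of 3 replicates per population, tested DP-R1hi against DP-R1lo with edgeR in DiffBind, and annotated peaks with HOMER 3.0. The deposited lists have no header. Their log2 columns, as deposited, were read as the authors' mean normalised reads per population, because the overall mean follows from both and each list's name gives the population that is less open. Subtraction of control reads is not given in the sources used here. Positions and distances, as deposited, are in bp. The authors' fold change and significance columns were not used, and differences were taken between the group means. Counts, medians and shares were computed in Python 3.11.15 with numpy 2.4.6, and the counting code was tested on simulated lists. Library depth is unknown, so no interval was given.

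All peaks whose nearest gene symbol was a member were described. Of partner, haemogenic and marker genes, those with a peak within 1 kb of the start site or at least 3 peaks qualified for naming, and others are named after their values were seen. Members and lists were chosen with earlier results of these data known. Genes spi1b and etv2 were each in 2 lists. Gene order came from the RefSeq table of GRCz12tu. Alternatives covered difference, distance, lowest values, 1 peak per gene, merging and accession match.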

Additional observations from a re-analysis of the deposited data

How the results depend on the processing

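The median difference over the 25 peaks, 1.69 on the log2 scale, had no stable sign, because the peaks fall into groups on both sides of 0. It was -0.22 with differences of at least 2, -1.42 within 50 kb of a start site and -2.51 with the closest peak per gene. It was 1.72 without peaks at a lowest listed value and 1.25 with peaks of 1 list within 10 kb merged. Within 50 kb, 7 of 15 peaks were more open in DP-R1hi, against 2536 of 6049 listed peaks within that distance. With the closest peak per gene, 4 peaks (and 4 genes) were more open in DP-R1hi and 5 in DP-R1lo. Without lowest values, 12 were more open in DP-R1hi and 7 in DP-R1lo. That filter removes 18.8% of the whole DP-R1hi list but 36.6% of the DP-R1lo list, so it raises the DP-R1hi share of all listed peaks as well. Shares over all listed peaks were not computed for these 2 settings. Further alternatives were chosen after seeing the data. Counting listed peaks of any gene within 100 kb gave 18 more open in DP-R1hi, 19 in DP-R1lo and a median of -1.42, with no share over all peaks computed. The other alternatives left out 1 gene. The median was then -0.08 without gata4 or tal2, 1.47 without gata1a or lmo2, 1.72 without gata5, and 1.71 without gata6 or tal1. Without gata3 it was 1.81, with 13 peaks more open in DP-R1hi and 7 in DP-R1lo. A minimum difference of 1 and the accession match gave the values reported. No paired analysis was possible because only group means are listed, and replicates could not be left out for the same reason.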

Other observations

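Myeloid marker genes, not described above, lay on the DP-R1hi side. Of 8 genes 4 had a listed peak, and 10 of 12 peaks were more open in DP-R1hi (83.3%, against 40.8% of all listed peaks). All 5 peaks of cebpa, a factor of granulocyte and monocyte development, were more open in DP-R1hi, with the promoter at 6.82 in DP-R1hi and 4.65 in DP-R1lo. The coro1a promoter, a site of a leukocyte actin regulator gene, had 5.60 in DP-R1hi and 2.02 in DP-R1lo, but 2 coro1a peaks farther upstream were more open in DP-R1lo. The granule and macrophage genes mpx, lyz and mpeg1.1 and the leukocyte gene ptprc had no listed peak.

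Markers of other tissues had few listed peaks. Of 11 genes 6 had one, and 2 of 7 peaks were more open in DP-R1hi (28.6%, against 40.8% of all listed peaks). The peaks of pdgfra, a sclerotome and neural crest marker in the paper, and of elavl3, foxa2 and nkx2.5 were more open in DP-R1lo. The sox32 peak was more open in DP-R1hi, and the paper reports sox32 RNA as specific to HE but repressed by Runx1. The neurod1 gene had 1 peak in each list. The muscle factor gene myod1, the neural crest gene sox10, the pronephric gene cdh17, tbx5a and hand2 had none.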
